A study of Rattus norvegicus with 6 samples.

Results

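The start of rat chromosome 13 in build rn5, up to position 15570181, was studied as a distant partner of a gene promoter that lies at about 55570181 on the same chromosome. All EcoRI fragments that start below that bound were taken, so they lie more than 40 Mb below the promoter. They numbered 3709 of the 34455 fragments of chromosome 13 and of 794445 in all. Contacts were mapped by 4C-seq, in which fixed chromatin is cut, its loose ends are ligated again, and the partners of 1 chosen site, the viewpoint, are sequenced. The cells were cardiac endothelial cells at passage 2, with male and female cells pooled, fixed in 2% formaldehyde for 10 min. They came from SS/JrHsdMcwi rats, a Dahl salt-sensitive strain called SS here, and from SS-13BN/Mcwi rats, called SS13BN, in which chromosome 13 of the Brown Norway rat replaces that of the SS rat. No further treatment is named for either strain. Of 3 libraries per strain, the 2 numbered 3 list chromosome 13 at 0 throughout, so 4 libraries were used here. The labels name no separate animals or cultures behind the libraries of a strain, and p-values therefore measure the spread between libraries, which may be technical. A 4C library carries no transcript levels, so the labelled cell type could not be checked against markers.

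Chromatin of a chromosome occupies a territory in the nucleus, and on the same chromosome contact frequency falls with distance. Far beyond the nearest megabases a contact depends on how whole compartments of active and inactive chromatin meet. The level of capture on other chromosomes was used here as a yardstick. It puts the libraries on a common scale and is not an expected level for distant contacts on the same chromosome. In the RefSeq gene table of assembly GRCr8, the named protein-coding genes of chromosome 13 begin with Dsel, an enzyme that modifies dermatan sulfate, followed by the contactin-associated genes Cntnap5c, Cntnap5a and Cntnap5b, neuronal adhesion proteins. Cdh20, a cadherin, Rnf152, a ubiquitin ligase, and Pign, an enzyme of GPI anchor synthesis, come next, and Tnfrsf11a, Phlpp1, Bcl2 and the Serpinb cluster follow. Where these genes lie on rn5 was not determined, so no window below is given a gene name, and sequences of the windows are not printed.

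The start of the chromosome was captured less often than the rest of the genome in all 4 libraries. A fragment counts as captured when the deposited scores count it, taken here to mean at least 1 read. The cut-off behind the scores is not named. In SS 1, 330 of the 3709 fragments were captured, a share of 8.90% (95% Wilson interval 8.02% to 9.86%), and in SS 2 there were 284, or 7.66% (6.84% to 8.56%). In SS13BN 1 there were 274, or 7.39% (6.59% to 8.27%), and in SS13BN 2 there were 452, or 12.2% (11.2% to 13.3%). SS13BN 2 was the highest and the other libraries lay close together, and SS13BN 2 also had the largest captured share on the 20 chromosomes other than 13. Those shares were 12.3% and 9.99% in the SS libraries and 9.92% and 17.4% in the SS13BN libraries. Intervals cover counting error only.

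Dividing the share at the start of chromosome 13 by the share of the same library on the other chromosomes gave its relative capture. SS 1 had a ratio of 0.721, SS 2 of 0.766, SS13BN 1 of 0.745 and SS13BN 2 of 0.699, with a mean of 0.733 ± 0.0291 (SD, n = 4). Every library thus lay below 1, and the 4 values were much closer to each other than the raw shares.

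The start was also captured less often than both stretches of its own chromosome that it was compared with. The neighbouring stretch, 10 to 40 Mb below the viewpoint with 10848 fragments, had a relative capture of 0.998 and 1.19 in the SS libraries and of 1.15 and 1.06 in the SS13BN libraries, numbers 1 and 2. The distal end, more than 40 Mb above the viewpoint with 5870 fragments, had 1.74, 2.14, 2.14 and 1.78 in the same order. Neither stretch overlapped the start in any library. The start lay below the neighbouring stretch by a mean difference in relative capture of -0.366, lower in 4 of 4 libraries (exact two-sided sign permutation test, p = 0.125). Against the distal end the mean difference was -1.22, again lower in 4 of 4 libraries (exact two-sided sign permutation test, p = 0.125). With 4 libraries, 0.125 is the smallest p this test can give, so neither difference could reach 0.05. The ends therefore differed although both lie more than 40 Mb from the viewpoint, with means of 0.733 ± 0.0291 at the start and 1.95 ± 0.221 at the distal end (SD, n = 4).

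**Figure D1:**
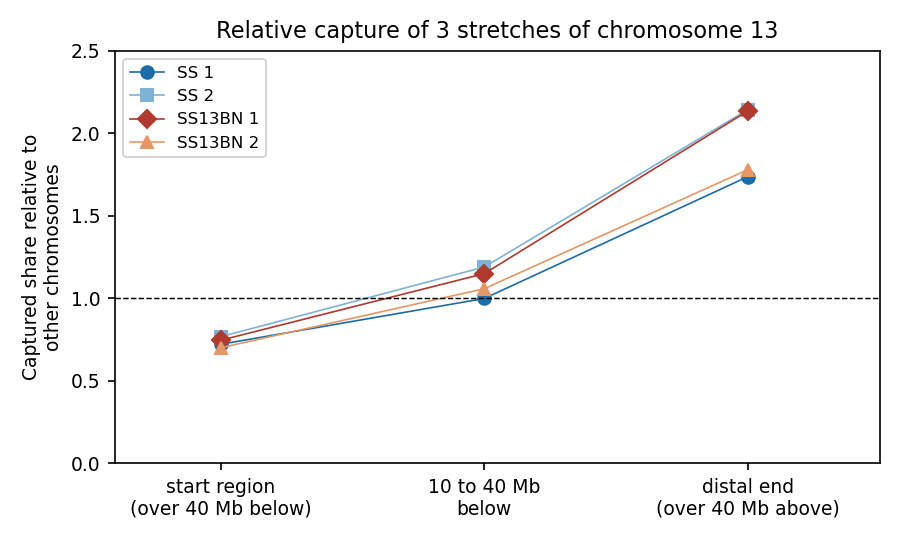
Relative capture (captured share divided by that of the other chromosomes in the same library, vertical axis, no unit) of 3 stretches of chromosome 13, with 1 line per library. All 4 libraries rise from the start region, at 0.699 to 0.766, through the stretch 10 to 40 Mb below the viewpoint to the distal end, at 1.74 to 2.14; the dashed line marks the level of the other chromosomes.

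Capture was not even along the start, and nearly nothing was captured in the first 1 Mb. Of 361 fragments there, SS 1 captured 0. That allows a share of up to 0.831% (3 counts of the total), and the 95% Wilson interval reached 1.05%. SS 2 captured 1, SS13BN 1 captured 2 and SS13BN 2 captured 1. These were 3 distinct fragments. Mean relative capture of this first 1 Mb was 0.0249 ± 0.0236 (SD, n = 4), and all 4 libraries lay at or near 0. The first captured fragment started at 268262 in SS13BN 2, at 855489 in SS 2 and SS13BN 1, and at 1065293 in SS 1. Before the earliest of them, 95 neighbouring fragments were not captured in any library. On the other 20 chromosomes the number of fragments before the first captured one ranged from 0 to 46, with a median of 4. None waited as long in fragments, but in distance chromosome 1 came close, with its first captured fragment at 249301.

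From 1 Mb on, capture rose towards the level of other chromosomes. Between 1 and 2 Mb mean relative capture was 0.613 ± 0.110 (SD, n = 4), with 25 and 22 of 317 fragments captured in the SS libraries and 21 and 25 in the SS13BN libraries. From 2 Mb to 6103563 it was 0.825 ± 0.0383 (SD, n = 4) over 1493 fragments. Without the first 1 Mb, relative capture of the whole start was 0.798 and 0.846 in the SS libraries and 0.819 and 0.773 in the SS13BN libraries. The first 1 Mb therefore lowered the level of the whole stretch, and the rest still lay below 1 in each library.

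The tables list 1 very long interval in the middle of the stretch, from 6103564 to 11571075. It spans 5.47 Mb, or 35.1% of the length studied here, and is the longest but 5 of all intervals in the tables. It was captured in 0 of 4 libraries. What sequence it holds was not analysed here. It counts as 1 fragment, so it does not move the shares, but it leaves 10.1 Mb in which the other fragments lie, at 367 fragments per Mb. The next longest interval, from 14888172 to 15025941, spans 137770 bp and was also captured in 0 libraries.

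Capture was low on both sides of this long interval, but right beside its upper end only in SS13BN 2. In the last 200 kb before it, 4, 4, 2 and 2 of 67 fragments were captured in SS 1, SS 2, SS13BN 1 and SS13BN 2, a mean relative capture of 0.388 ± 0.189 (SD, n = 4). In the first 200 kb after it, 6, 4, 4 and 5 of 77 fragments were captured, a mean of 0.512 ± 0.106 (SD, n = 4). Of these, 4, 2, 3 and 1 lay in the 50 kb window at 11550001, next to the interval. That window held 10 fragments, with a mean relative capture of 2.21. The captured share there was above that of other chromosomes in SS 1, SS 2 and SS13BN 1 and below it in SS13BN 2. Over the first 500 kb after the interval the mean was 0.475 ± 0.155 (SD, n = 4). In SS 1, SS 2 and SS13BN 1 the low level was thus not graded towards the interval on that side, as far as 10 fragments can show. The whole block after the interval stood at 0.843 and 0.846 in the SS libraries and at 0.853 and 0.795 in the SS13BN libraries, over 1537 fragments. The block before it stood lower in each library, at 0.634, 0.710, 0.669 and 0.632 over 2171 fragments. The first 1 Mb belongs to that block.

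In windows of 500 kb, 21 of 22 held at least 40 fragments and were compared. The 5 lowest by mean relative capture start at 1, 500001, 6000001, 4000001 and 11500001. Their means were 0.00859, 0.0389, 0.105, 0.278 and 0.415. Thus 2 of them are the tip of the chromosome, another 2 border the long interval, and 1 lies inside the first block. In that last window, at 4000001, the SS libraries captured 4 and 8 of 202 fragments and the SS13BN libraries 6 and 9. It overlaps the second longest run without any capture, from 4101977 to 4617812. There 182 neighbouring fragments over 516 kb were not captured in any of the 4 libraries. The longest such run held 219 fragments over 586 kb, from 269004 to 855488. Runs of this size also occurred on other chromosomes, each of which holds more fragments than this stretch. The longest run of each held 90 to 1773 fragments, with a median of 212. Of those 20 chromosomes, 10 had a longer run than 219. Over their 759990 fragments in all, 15 runs were at least as long, whereas this stretch holds 3709 fragments. Elsewhere on chromosome 13 the longest run held 1072 fragments.

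The 5 highest windows start at 2000001, 12500001, 12000001, 3500001 and 3000001, with mean relative capture of 1.21, 1.15, 1.10, 1.04 and 0.926. The window at 2000001 held 213 fragments, of which SS 1 captured 32, SS 2 captured 24, SS13BN 1 captured 30 and SS13BN 2 captured 40, which put all 4 libraries above 1, at 1.22, 1.13, 1.42 and 1.08. At 12500001 the values spread more, with 0.965, 1.61, 1.15 and 0.862, so that it lay above 1 in 2 libraries and below in the other two. At 12000001 they were 1.15, 1.05, 1.27 and 0.936, above 1 in 3 of 4 libraries. The highest windows were thus close to the level of other chromosomes and below the mean of the distal end.

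**Figure D2:**
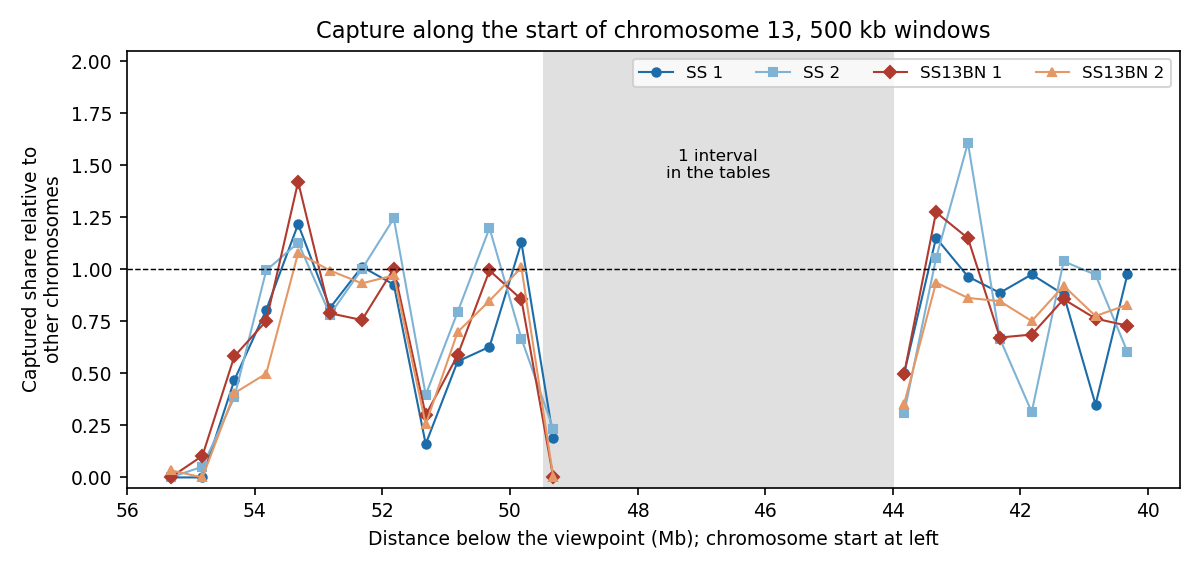
Relative capture (vertical axis, no unit) in 500 kb windows with at least 40 fragments, by distance below the viewpoint in Mb (horizontal axis, chromosome start at left), with 1 line per library; the grey band is the 5.47 Mb interval. All 4 libraries lie near 0 in the first 1 Mb, dip together in the window at 4000001 (mean 0.278) and are low in the windows on either side of the grey band.

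At a finer scale of 50 kb, captured fragments were few. Over 202 windows the mean number per library had a median of 1.63 and a maximum of 6.25, and 37 windows had none in any library. The window from 2350001, with 26 fragments, had 8 and 1 captured in the SS libraries and 6 and 10 in the SS13BN libraries. The window from 12800001, with 25 fragments, had 8, 5, 4 and 4 in the same order, and that from 14000001, with 34 fragments, had 5, 5, 3 and 8. SS 2 thus lacked most of the capture that the other 3 libraries had at 2350001.

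Libraries shared the broad profile. Over the 21 windows of 500 kb, relative capture in SS 1 and SS 2 had a Pearson's r of 0.658 and a Spearman's rho of 0.583. Pairs of an SS and an SS13BN library had r of 0.858 for SS 1 and SS13BN 1, 0.890 for SS 1 and SS13BN 2, 0.854 for SS 2 and SS13BN 1 and 0.771 for SS 2 and SS13BN 2. The SS13BN libraries had 0.891. Without the first 2 windows, r ranged from 0.488 to 0.836 (19 windows), and over 201 windows of 50 kb from 0.307 to 0.497. The windows share fragment lengths, neighbours and the low tip of the chromosome, so these values describe the profiles and are given with no p. At 500 kb the SS pair had the lowest r and the SS13BN pair the highest, with the 4 pairs across strains between them. By Spearman's rho, SS 2 and SS13BN 1 stood highest there, at 0.904 against 0.893 for the SS13BN pair. At 50 kb SS 2 and SS13BN 2 had the highest r, at 0.497 against 0.453 for the SS13BN pair.

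The starts of other chromosomes offered a comparison at matched position. Over starts of equal length, relative capture of chromosome 13 had 2 of the 20 others below it, namely chromosome 14 at 0.600 and chromosome 7 at 0.647, and the median of the others was 1.0. Chromosome 20 had the highest start, at 1.54. In SS 1, SS 2 and SS13BN 2, 2 other chromosomes lay lower, and in SS13BN 1 there were 3. The low level of the whole stretch was therefore shared with a few other chromosome starts. For the first 1 Mb alone, chromosome 13 was the lowest of 21 in each of the 4 libraries. Its mean of 0.0249 stood below 0.101 on chromosome 14, the next lowest, and below a median of 0.714, and the highest was 1.22 on chromosome 4. From 1 Mb to the bound, chromosome 13 stood at 0.809, with 3 others lower and a median of 1.01.

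The opposite end of chromosome 13 had the reverse rank. Its last stretch of the same length had a relative capture of 2.16, above the last stretches of all 20 other chromosomes, of which chromosome 12 was highest at 1.70. Capture of the other end was thus raised above every matched end, and capture of the start was not raised above a typical matched start.

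**Figure D3:**
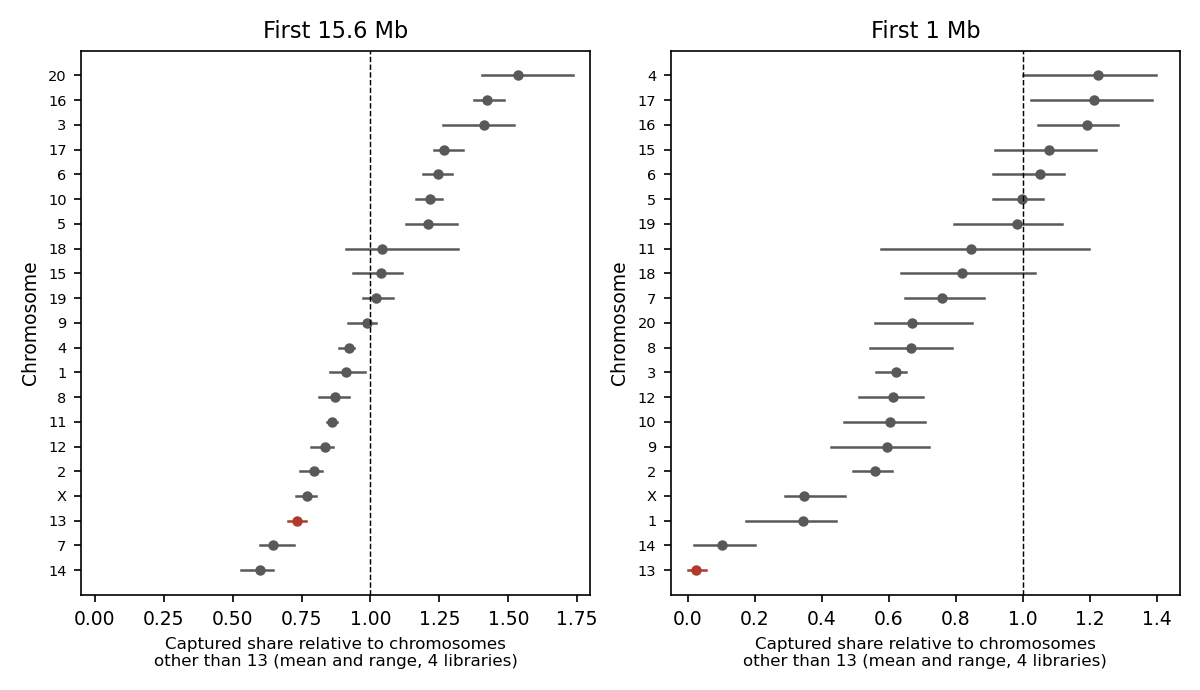
Relative capture (horizontal axes, no unit) of the start of each chromosome, as mean (point) and range over the 4 libraries (line), for a start as long as the stretch studied here (left) and for the first 1 Mb (right); chromosome 13 is red. At left chromosome 13 (0.733) has chromosomes 14 (0.600) and 7 (0.647) below it, and at right it is the lowest, at 0.0249.

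Fragments at the start had a median length of 1705 bp, shorter than the 2189 bp of other chromosomes and the 2546 bp of the distal end. In the stretch 10 to 40 Mb below the viewpoint, with its higher capture, they were shorter still, with a median of 1586 bp. Short fragments were captured less often on the other chromosomes too, so capture was compared within classes of length. Under 500 bp, which held 22.7% of the fragments here and 18.4% on other chromosomes, the mean captured share was 4.69% against 6.32% on other chromosomes. From 500 bp to 1 kb it was 8.87% against 9.52%, and from 1 to 2 kb 9.20% against 11.1%. Those classes gave mean ratios of 0.747, 0.942 and 0.846. From 2 to 5 kb the share was 10.9% against 14.4%, and from 5 to 10 kb 12.7% against 17.5%. Over 10 kb, with 135 fragments, it was 8.89% against 16.1%, a mean ratio of 0.541 with a range of 0.496 to 0.645 over libraries. The share was lower than on other chromosomes in each class on average, and in the class of 500 bp to 1 kb the ratio reached 1.0 in the highest library. The ratio was lowest among the longest fragments.

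Against the number of captures that fragments of the same 20 length classes had on other chromosomes, relative capture became 0.771 and 0.818 in the SS libraries and 0.796 and 0.747 in the SS13BN libraries. The mean moved from 0.733 to 0.783, so the stretch stayed below 1 in every library when length was matched. On this scale 2 other chromosome starts still lay lower.

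**Figure D4:**
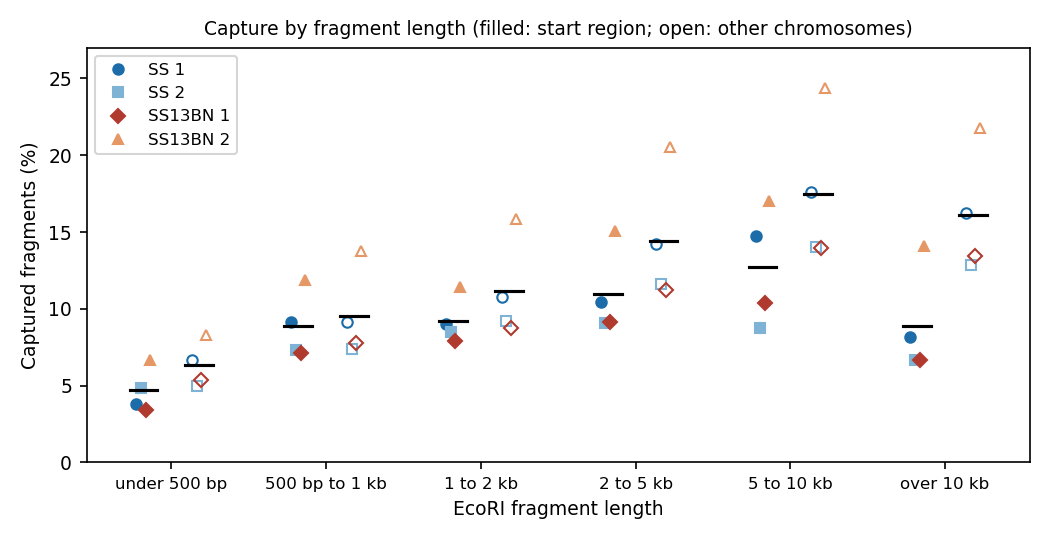
Captured fragments in percent (vertical axis) by class of EcoRI fragment length (horizontal axis), with filled symbols for the start of chromosome 13, open symbols for the other chromosomes, 1 symbol per library and bars at the mean of 4 libraries. Filled symbols lie lowest against the open ones over 10 kb, where the means are 8.89% and 16.1%.

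The deposited score gives the excess of captured fragments in a window of 37 fragments over a local background of up to 3000. It compares each place with its own surroundings, so a low stretch can still hold high scores. SS 1 reached a highest score of 4.12, SS 2 of 4.49, SS13BN 1 of 5.76 and SS13BN 2 of 4.34. A score of at least 3 was listed for 101 and 89 fragments in the SS libraries (2.72% and 2.40%) and for 81 and 70 in the SS13BN libraries (2.18% and 1.89%). Such scores were rarer than in the stretch 10 to 40 Mb below the viewpoint, where the shares were 5.38%, 4.88%, 6.40% and 5.53%, and than at the distal end, where they were 4.72%, 5.04%, 4.40% and 4.86%. Neighbouring windows share most of their fragments, so these shares are descriptions.

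High scores fell at different places in different libraries. The high fragments formed 13 and 8 runs in the SS libraries and 7 and 10 in the SS13BN libraries, and 0 places had a score of at least 3 in all 4 libraries. The highest run lay from 12375874 to 12426816 in SS 1 and from 12572529 to 12684392 in SS 2. It lay from 2232191 to 2329661 in SS13BN 1 and from 2356945 to 2396332 in SS13BN 2. Within the SS 1 run, where SS 1 reached 4.12, the highest scores were -0.11 in SS 2, 1.24 in SS13BN 1 and 2.32 in SS13BN 2. Within the SS 2 run, where SS 2 reached 4.49, the highest scores of the others were 0.76, 0.59 and 0.82.

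Recurring places lay mostly in the window of 500 kb at 2000001. From 2361908 to 2376164, 3 libraries reached 3, with highest scores of 3.18 in SS 1, 3.09 in SS13BN 1 and 4.34 in SS13BN 2, whereas SS 2 reached -0.33. At a score of at least 2, 1 place was shared by all 4 libraries, from 2252551 to 2256300, where SS 1 had 2.54, SS 2 had 2.87, SS13BN 1 had 5.07 and SS13BN 2 had 2.15. That shared place lies inside the highest run of SS13BN 1. Outside this window, 1 place had a score of at least 3 in 2 libraries, from 4682804 to 4700712, where SS 2 reached 3.04 and SS13BN 2 reached 3.16, against 1.40 in SS 1 and 1.95 in SS13BN 1.

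**Figure D5:**
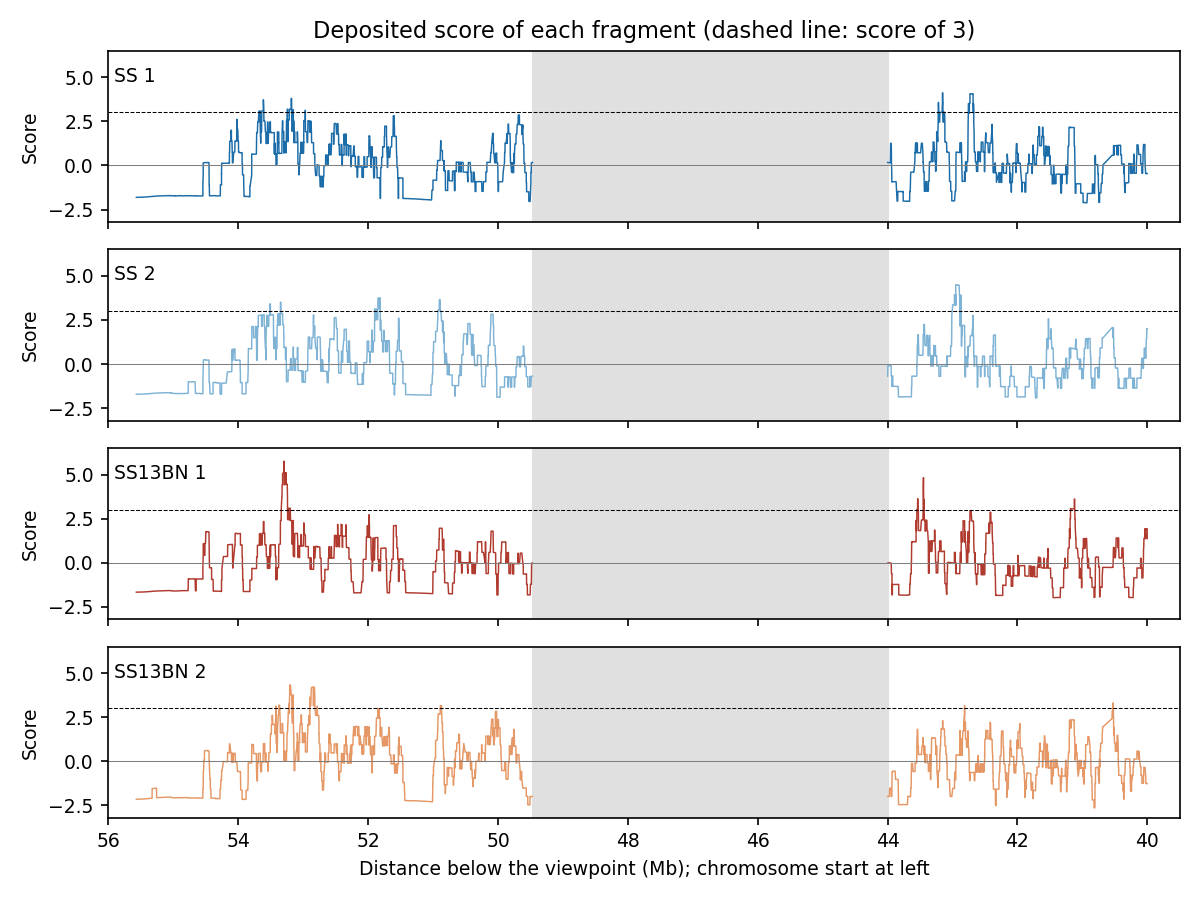
Deposited score of each fragment (vertical axes, in SD of the expected count of a window) by distance below the viewpoint in Mb (horizontal axis, chromosome start at left), with 1 panel per library; the dashed line is a score of 3 and the grey band the 5.47 Mb interval. Scores above 3 are few (70 to 101 fragments) and stand mostly at different places, and the first 1 Mb is flat and negative.

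Single fragments were seldom captured in more than 1 library. Of 3709 fragments, 2767 (74.6%) were captured in none, 657 in 1, 201 in 2, 55 in 3 and 29 in all 4. On other chromosomes 68.5% of fragments were captured in none and 1.87% in all 4, against 0.782% here, 1.73% in the stretch 10 to 40 Mb below the viewpoint and 5.26% at the distal end. Fragments captured in all 4 libraries were thus rarer here than in those 3 sets. Of the 29, the first lies from 1065293 to 1069613, 5 lie in the 500 kb window at 2000001, and 11 lie after the long interval. A pair of them are neighbours, from 12834340 to 12838168 and from 12838169 to 12838409. The longest of them, from 12079030 to 12091642, spans 12613 bp.

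Capture in 1 library went with capture in another, about as on other chromosomes. Of the 330 fragments captured in SS 1, 81 (24.5%) were captured in SS13BN 1, which was 3.32 times the share of the whole stretch captured in that library, and on other chromosomes this ratio was 3.38. Of the 284 in SS 2, 125 (44.0%) were captured in SS13BN 2, a ratio of 3.61 against 3.21 elsewhere. Within strains, SS 1 and SS 2 shared 65 fragments, a ratio of 2.57 against 2.87 elsewhere, and SS13BN 1 and SS13BN 2 shared 84, a ratio of 2.52 against 2.67. The 4 ratios across strains ranged from 2.93 to 3.61, so the overlap within a strain was not larger than that across strains. Fragment length was not held fixed in these ratios.

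The comparison of strains asks whether the origin of chromosome 13 alters the contacts of the promoter. No difference between strains was found at the start of the chromosome. The captured share was 8.28% ± 0.877 in SS and 9.79% ± 3.39 in SS13BN (SD, n = 2), a difference of 1.51 percentage points (exact two-sided permutation test, p = 1). The strains overlapped, since SS13BN held both the highest and the lowest library, and without SS13BN 2 the difference turned to -0.890. Relative capture was 0.743 ± 0.0323 in SS and 0.722 ± 0.0322 in SS13BN (SD, n = 2), a difference of -0.0213 (exact two-sided permutation test, p = 0.667). Its sign turned without SS 2, to 0.00158, and without SS13BN 2, to 0.00152. With 2 libraries against 2, the smallest p this test can give is 0.333, so no difference of any size could pass 0.05.

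In 50 kb windows, 0 of the 137 windows tested in the stretch differed between strains at an adjusted p under 0.05 (limma on log2 of scaled captured fragments + 1, Benjamini-Hochberg over all 1953 windows of chromosome 13, of which 0% passed). Before adjustment, 7 of these 137 had a p under 0.05 (limma), against 52 of the 1953 windows of chromosome 13. The unadjusted 95% interval of the log2 difference reached 1.46 to either side in the median window. Differences smaller than that were mostly not detectable. After adjustment larger ones could be missed too, since a difference of -2.09 at 13200001 had an adjusted p of 0.953 (limma). In captures scaled to library totals on chromosome 13, both SS13BN libraries lay above both SS libraries in 24 windows. That was 17.5%, against 20.1% of all windows of chromosome 13. They lay below both SS libraries in 19 (13.9%, against 10.6%). Both shares lay near those of the whole chromosome.

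Of the 7 windows with an unadjusted p under 0.05, 4 had fewer and 3 had more captures in SS13BN (limma). The 3 with the smallest p were among those with fewer. The window at 2050001 had 5, 5, 1 and 1 of 17 fragments captured in SS 1, SS 2, SS13BN 1 and SS13BN 2, a log2 difference of -1.73 (SE 0.40). The window at 13200001 had 3, 3, 0 and 0 of 25, with -2.09 (SE 0.54), and that at 5900001 had 3, 3, 0 and 1 of 11, with -1.68 (SE 0.57). Both strains were apart in each of them, and the adjusted p was 0.953 in all 3 (limma). These are fitted values on the log2(value + 1) scale, which understates the change of low counts.

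In 500 kb windows, 0 of 18 tested windows differed between strains (limma, adjusted over 224 windows of chromosome 13, of which 0% passed). Before adjustment 0 had a p under 0.05 (limma), against 11 of the 224 windows of chromosome 13. The 95% interval of a log2 difference reached 0.78 to either side in the median window. Overlap was judged on captures scaled to library totals on chromosome 13, and the counts listed below are unscaled. SS13BN was above SS without overlap in 0 windows (22.8% of all windows of chromosome 13) and below in 2 (11.1%, against 10.3%). Those with the smallest p start at 1500001, 12500001 and 14500001 and had an adjusted p of 0.934 (limma). The window at 1500001 had 16, 16, 12 and 14 captured fragments in SS 1, SS 2, SS13BN 1 and SS13BN 2, a log2 difference of -0.49 (SE 0.39). At 12500001 there were 23, 31, 22 and 29, with -0.29 (SE 0.23), which moved to -0.49 without SS 1 and to -0.08 without SS 2. At 14500001 there were 8, 18, 14 and 25, with 0.39 (SE 0.41), which turned to -0.15 without SS 1. Without the filter on low values, 1 window passed, the only call over 228 windows of chromosome 13. It lay at 6000001 beside the long interval, where 1, 1, 0 and 0 of 43 fragments were captured (limma, adjusted p = 0.0413, log2 difference -1.06). That call rests on 1 captured fragment in each SS library.

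Both SS libraries and neither SS13BN library captured 11 fragments, or 0.297% of the stretch, against 0.946% of all fragments of chromosome 13 and 0.580% on other chromosomes. Both SS13BN libraries and neither SS library captured 25, or 0.674%, against 2% of chromosome 13 and 1.19% on other chromosomes. SS13BN had the larger count in all 3 sets. SS13BN 2 captured the most fragments of the 4 libraries, and its part in these counts was not tested.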

How the data were processed

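For each library the authors deposited a table that gives every EcoRI fragment a score. Build rn5 and CASAVA 1.8 are named in the submitters' processing notes, and for the aligner, read filters and scoring program the sources used here give no name. Coordinates are those of the tables, whose intervals start at 0. From the values, the deposited score counts the captured ones among W neighbouring fragments, minus its expectation Wp, in units of the binomial SD. On other chromosomes W was 501 and p the captured share of the chromosome. On chromosome 13 far from the viewpoint W was 37 and p came from up to 3000 surrounding fragments, fewer near the chromosome start. Solving these equations gave captured states that rebuilt 100% of the windows in each library. Captured fragments on other chromosomes numbered 93838 and 75942 in the SS libraries and 75366 and 132426 in the SS13BN libraries. Reads per fragment are lost at this distance.

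Shares and relative capture of libraries were tested by exact two-sided permutation. Windows were fitted over all of chromosome 13 with limma 3.58.1 (R 4.3.3, intensity trend) on log2(captured + 1), scaled to the mean library total on chromosome 13, for windows with a mean of at least 1 and without fragments within 10 kb of the viewpoint. The adjusted p threshold was 0.05, and scripts were tested on simulated data. The 500 kb windows named are the 5 highest and 5 lowest in mean relative capture among those with at least 40 fragments. Score places shared by libraries, the 3 windows of 50 kb with the most captures and the 3 with the smallest p between strains at each size were named too. The members and lists were chosen with earlier results of these data known. Stretches beside the long interval, and single fragments and runs, were chosen after their values were seen. Alternatives were other fragment filters, bounds, scalings, pseudocounts, window sizes, a replicate block and leaving out each library. Other computing used Python 3.11.15 with scipy 1.17.1, numpy 2.4.6, pandas 2.3.3 and matplotlib 3.10.9.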

Additional observations from a re-analysis of the deposited data

How the results depend on the processing

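The start lay below the distal end by -1.28 to -1.09 in relative capture, and below the stretch 10 to 40 Mb below the viewpoint by -0.471 to -0.289, over 8 alternatives each. The named 500 kb levels moved by less than 1 SD under 7 alternatives each, but the SD was at least as large as the mean where captures were fewest. Leaving out 1 library took the window at 1 from 0.00859 to 0 (without SS13BN 2), that at 500001 from 0.0389 to 0.0172 (without SS13BN 1) and that at 6000001 from 0.105 to 0.0628 (without SS 2). The strain difference in captured share ranged from -0.890 (without SS13BN 2) to 3.91 percentage points when 1 library was left out, and that in relative capture from -0.0441 to 0.00158, with 0.00158 without SS 2 and 0.00152 without SS13BN 2. Shared score places numbered 1 at a score of at least 2, 1 when 3 of 4 libraries sufficed, and 0 to 1 when 1 library was left out. In the stretch, no 50 kb window passed under any alternative that kept both libraries of each strain. Over all of chromosome 13, 0 windows passed in those settings too. At 500 kb, 1 window of the stretch passed without the filter on low values, the only call over 228 windows of chromosome 13. Under the other alternatives that kept both libraries of each strain, 0 passed in the stretch or on chromosome 13. The window at 14500001 ranged from -0.15 (without SS 1) to 0.94 (without SS 2). The cause of these changes was not tested. Same-numbered libraries of both strains had deviations correlated at 0.0942, 0.130 and 0.0842 over 5305 windows of other chromosomes, and differently numbered ones at -0.0976 to -0.00981. Each library thus correlated best with its own number, a hint from the data and not the design, and the libraries share only a number. With the replicate block, the strain differences were 1.51 (p = 1) and -0.0213 (p = 1, exact sign permutation tests of 2 pairs). With 2 pairs this test could not reach 0.05, whatever the difference. In the same setting 0 windows passed at either size. At 50 kb, 10 windows of the stretch against 7 had an unadjusted p under 0.05 (limma). Over all 1953 windows of chromosome 13 the counts were 98 against 52. Where a strain kept 1 library, that library was assumed to vary like the others. At 50 kb few fragments per window were captured, and how far depth limits those comparisons was not tested.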
